A study of Mus musculus with 50 samples.

Results

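Mouse embryonic stem cells that lack the m6A reader Ythdf1 were compared directly with cells that lack its paralog Ythdf2, at the start of an actinomycin D time course and with no WT library in the test. The members were the 8 libraries of 0 h labelled Ythdf1_KO or Ythdf2_KO, out of 50 libraries in the series: 4 of Ythdf1_KO and 4 of Ythdf2_KO, taken by their genotype and time labels. Both knockouts (Ythdf1-/- and Ythdf2-/-) were made in KH2 cells, a C57BL/6 x 129/Sv hybrid line, and grew in serum medium with LIF. Cells were plated on gelatin 48 h before the medium was changed to one with 5 µM actinomycin D, which stops transcription, and the 0 h samples mark the start of that treatment. Each genotype had a replicate A and a replicate B, each sequenced as 2 duplicate libraries, which were averaged first, so n = 2 per genotype. Whether A and B came from different cultures, and how many clones stand for a genotype, is not on the labels. A clone's own traits therefore cannot be told apart from its genotype. The p-values at 0 h rest only on the spread between the knockout samples, taken over genes of like level and not gene by gene. The other groups used for context are WT, Ythdf3_KO and Triple_KO (all 3 Ythdf genes) at 0 h, and the same 2 knockouts after 4 h and 8 h of actinomycin D.

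N6-methyladenosine (m6A) is the most common internal modification of mRNA, written by the METTL3 and METTL14 methyltransferase complex, mostly near stop codons and in long internal exons. YTHDF1, YTHDF2 and YTHDF3 are cytoplasmic proteins that bind it through a YTH domain. YTHDF2 is best known for bringing methylated mRNA to the CCR4-NOT deadenylase and so to decay, and YTHDF1 was first described as a promoter of translation, while later work gave the paralogs largely shared targets. In embryonic stem cells, m6A marks many transcripts of pluripotency factors, and its loss hinders the exit from the naive state.

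Depth at 0 h was similar in both genotypes, at 1369330 to 2341410 reads per library in Ythdf1_KO and 1670500 to 2284980 in Ythdf2_KO. The transcripts listed held 43.9 ± 0.365% of the reads in Ythdf1_KO and 43.4 ± 0.921% in Ythdf2_KO (SD, n = 4 libraries). Values are in FPM, reads scaled to the library's total, so 1 read was worth 0.427 to 0.730 FPM. The summed level of 12 embryonic stem cell markers was 3081 to 3374 FPM in Ythdf1_KO, 3247 to 3404 in Ythdf2_KO and 3185 to 3411 in WT, which is the cell type on the label. None of the 12 was at 0.

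Of 8560 genes tested, 336 (3.93%) differed between the knockouts at an adjusted p under 0.05. Of these, 203 (2.37% of genes tested) were higher in Ythdf1_KO and 133 (1.55%) were higher in Ythdf2_KO. Most differences were small: the median size among the 336 was 0.47 on the log2 scale, and 41 reached 1 (2-fold). The 4 libraries of one genotype lay above the 4 of the other in 260 of the 336. The calls come from these same libraries, so this is no separate support. Over all genes tested, the 4 libraries of Ythdf1_KO lay above those of Ythdf2_KO in 5.23%, and the reverse held in 2.71%. The direction of the split depended on how libraries were scaled. Setting the median log2 level of the genes tested equal in all samples (median scaling) gave 135 higher in Ythdf1_KO and 233 in Ythdf2_KO. TMM scaling gave 139 and 246. Without these scalings the median difference of all genes was 0.036. edgeR's quasi-likelihood test on the recovered reads gave 154 and 222.

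The readers themselves came first, since they are the targeted genes. Ythdf1 was at 64.9 and 54.2 FPM in replicate A and 51.1 and 57.3 in replicate B of Ythdf1_KO, against 40.2, 55.7, 52.5 and 63.3 in Ythdf2_KO. These ranges overlapped each other and the WT range of 50.7 to 67.7, and the log2 difference was 0.12 ± 0.12 (SE, adjusted p = 0.735). Ythdf2 was at 66.6, 77.8, 66.5 and 58.6 FPM in Ythdf1_KO and at 28.9, 38.9, 32.8 and 31.9 in Ythdf2_KO. All 4 libraries of Ythdf1_KO lay above all 4 of Ythdf2_KO, with WT between them at 40.5 to 58.6. The difference of 1.00 ± 0.12 (adjusted p = 6.94e-15) was 2.0-fold. In Triple_KO, which is also labelled as lacking the gene, Ythdf2 was at 71.8 to 97.3 FPM. Where each gene was edited is not given, and reads of the last exons may miss that place, so these levels check neither label. After 4 h and 8 h the Ythdf2 differences were 0.03 (adjusted p = 0.987) and 0.27 (adjusted p = 0.595).

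The remaining readers did not pass the test. Ythdf3 averaged 25.9 ± 2.25 FPM in Ythdf1_KO and 22.4 ± 6.45 in Ythdf2_KO (SD, n = 4 libraries; difference 0.24, adjusted p = 0.561). Ythdc1, the nuclear reader, averaged 27.4 ± 2.73 and 19.7 ± 2.69 FPM; its 4 libraries did not overlap, but the difference of 0.46 had an adjusted p of 0.13. Ythdc2, a helicase with a YTH domain, averaged 6.12 ± 1.08 and 4.3 ± 2.7 FPM (0.54, adjusted p = 0.495). Among 24 tested writers, erasers and readers of m6A, the median difference was 0.17. Of them, 2 were higher in Ythdf1_KO and none in Ythdf2_KO (8.33% called, against 3.93% of all genes). The second of them, beside Ythdf2, was Hnrnpa2b1, an RNA-binding protein linked to m6A-dependent processing. It was at 277, 259, 280 and 295 FPM in Ythdf1_KO and at 192, 199, 200 and 189 in Ythdf2_KO. The groups did not overlap (0.51 ± 0.06, adjusted p = 4.03e-13), and the WT range of 264 to 310 FPM held the Ythdf1_KO values in all but 1 library. The methyltransferase subunits were not called: Mettl3 differed by 0.34 (adjusted p = 0.579) and Mettl14 by 0.12 (adjusted p = 0.893). The median was -0.012 over 26 tested deadenylation and decapping factors, the machinery that YTHDF2 recruits. Of these, 1 was called, higher in Ythdf1_KO (3.85%, against 3.93% of all genes). That gene was Btg2, an antiproliferative partner of the deadenylase, at 25.6 ± 1.53 against 15.8 ± 1.19 FPM (adjusted p = 0.0143). Its call was lost without any 1 of the 4 replicates (adjusted p = 0.0665 to 0.153).

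**Figure D1:**
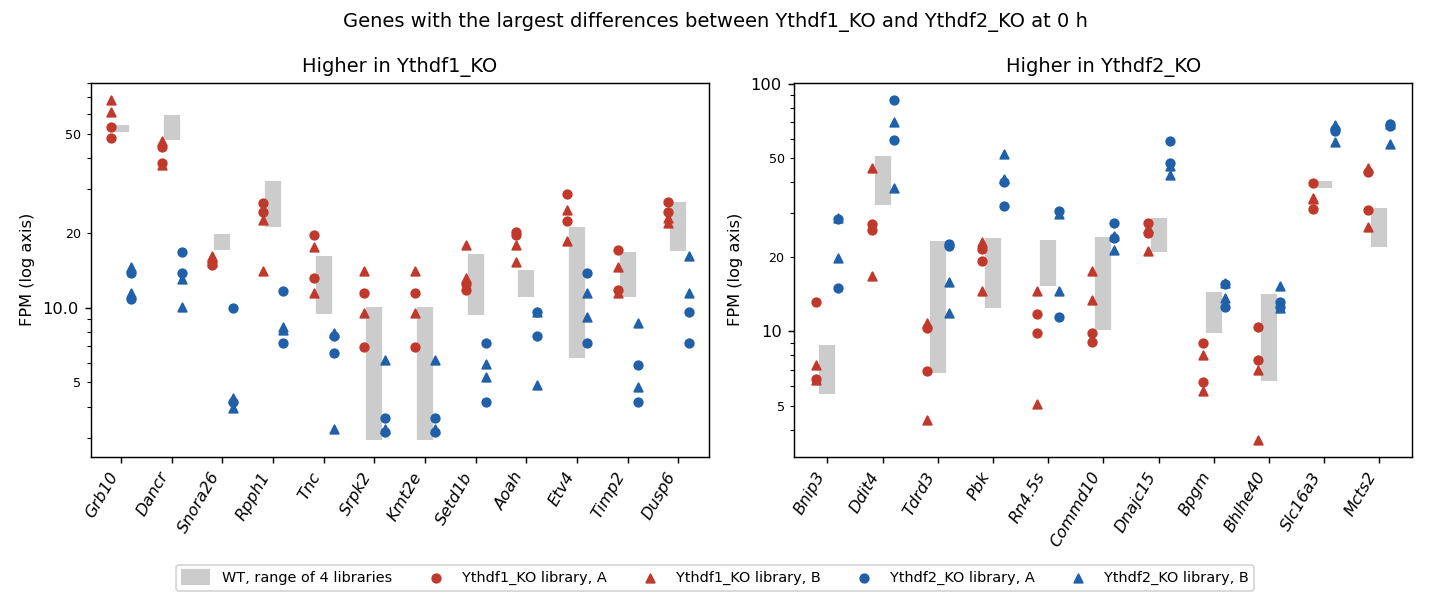
Values in FPM (log axis) of the 12 genes with the largest differences toward Ythdf1_KO and 11 of the 12 toward Ythdf2_KO among named genes with a mean of at least 10 FPM in either knockout (pseudogenes and unnamed gene models left out), for each library of Ythdf1_KO (red) and Ythdf2_KO (blue) at 0 h, circles for replicate A and triangles for B, with the range of the 4 WT libraries as a grey bar. Grb10 stands at 48.0 to 68.6 FPM in Ythdf1_KO and at 10.8 to 14.6 in Ythdf2_KO, the largest gap shown, while the Ddit4 libraries overlap.

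Among genes with at least 10 FPM, the largest difference was that of Grb10, an imprinted gene for an adaptor protein that restrains insulin and growth factor signalling (chr11:11930499-12037428, GRCm38.p6). It was at 53, 48.0, 68.6 and 61.1 FPM in Ythdf1_KO and at 10.8, 13.8, 11.4 and 14.6 in Ythdf2_KO. The Ythdf1_KO libraries lay around the WT range of 50.6 to 54.1 FPM, and all 4 of Ythdf2_KO lay far below it. Ythdf3_KO was at 62.7 to 76.8 and Triple_KO at 27.5 to 49.1 FPM. The difference was 2.10 ± 0.14 (adjusted p = 2.05e-45), 4.29-fold. It was 2.16 after 4 h (adjusted p = 1.1e-11) and 1.87 after 8 h (adjusted p = 4.29e-08), both in other libraries. A second imprinted gene, Plagl1, which encodes a zinc finger factor that restrains growth, was at 6.41, 5.56, 8.03 and 6.37 FPM in Ythdf1_KO and at 1.35, 0.599, 1.31 and 1.08 in Ythdf2_KO. These are few reads, but the groups did not overlap (1.87 ± 0.35, adjusted p = 1.57e-05), and WT was at 9.09 to 10.6. Mcts2, an imprinted retrogene of a translation factor, went the other way. It was at 30.8, 43.8, 26.3 and 45.8 FPM in Ythdf1_KO and at 68.6, 67.6, 57.3 and 68.7 in Ythdf2_KO, with WT at 22 to 31.5 (difference -0.85 ± 0.13, adjusted p = 2.6e-08). In all, 3 of 25 tested imprinted genes were called (12%, against 3.93% of all genes), and the list's median was 0.013.

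Dancr, a long noncoding RNA that hosts a small nucleolar RNA (chr5:74093060-74094337), was at 44.4, 38.2, 46.7 and 37.6 FPM in Ythdf1_KO and at 16.7, 13.8, 10.1 and 13 in Ythdf2_KO. Again Ythdf2_KO was the low genotype, 3.0-fold under Ythdf1_KO (1.59 ± 0.19, adjusted p = 2.01e-14), and WT was at 47.3 to 59.5. Triple_KO was lower still, at 6.64 to 10.8 FPM. Snora26, which guides pseudouridylation and lies within Dancr, differed by 1.40 ± 0.28 (adjusted p = 8.3e-05); without strand or mapping details its reads cannot be separated from those of its host. Its call was lost without Ythdf2_KO replicate B (adjusted p = 0.0543). Snora44 was at 9.51 ± 2.54 FPM in Ythdf1_KO and 3.09 ± 1.1 in Ythdf2_KO (1.37, adjusted p = 0.00283), and its call was lost without Ythdf1_KO replicate B or Ythdf2_KO replicate A (up to 0.161). Rpph1, the RNA of RNase P, was at 24.3, 26.4, 22.6 and 14 FPM against 11.7, 7.18, 8.32 and 8.11 (1.20 ± 0.23, adjusted p = 4.01e-05). Rn4.5s, a small RNA of rodents, went the other way, at 10.3 ± 4.01 against 21.6 ± 10.1 FPM with overlapping libraries (-0.96, adjusted p = 0.00482), and lost its call without any 1 of 3 replicates (up to 0.136). Over the 25 small nucleolar RNAs, hosts and related RNAs tested, 4 were higher in Ythdf1_KO and 1 in Ythdf2_KO. That is 20% called, against 3.93% of all genes, and the list's median was 0.078. The 3′ poly(A) RNA-seq libraries count only the reads of these small RNAs caught that way, and their total levels were not measured.

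The other large rises in Ythdf1_KO rested on lower levels. Tnc, which encodes the matrix protein tenascin C, was at 15.5 ± 3.78 FPM in Ythdf1_KO and 6.35 ± 2.14 in Ythdf2_KO (1.19, adjusted p = 8.67e-05). Setd1b, a histone H3 lysine methyltransferase, was at 13.8 ± 2.75 and 5.65 ± 1.27 FPM (1.16, adjusted p = 0.000998). Aoah, a lipase that inactivates bacterial endotoxin, was at 18.2 ± 2.12 and 7.94 ± 2.24 FPM (1.13, adjusted p = 0.000541). In each of these 3 the 4 libraries of Ythdf1_KO lay above those of Ythdf2_KO. Srpk2, a kinase of splicing factors, and its neighbour Kmt2e carried identical values (1.19, adjusted p = 0.00522), so that the reads belong to 1 source that cannot be assigned. Without 1 replicate Srpk2 and Kmt2e (up to an adjusted p of 0.152), Setd1b (without Ythdf1_KO replicate B, 0.0723) and Aoah (without Ythdf2_KO replicate B, 0.0613) lost their calls.

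Genes of glycolysis were higher in Ythdf2_KO as a group. The pathway turns glucose into pyruvate and lactate and is highly active in cultured stem cells. Of 25 tested members of the list, 12 were higher in Ythdf2_KO (1.55% of all genes were), none was higher in Ythdf1_KO, and 22 had a negative difference; the median was -0.16 against 0.036 for all genes. The members called span the route: the glucose importers Slc2a1 and Slc2a3, the enzymes Aldoa, Tpi1, Pgk1, Eno1 and Pkm, the lactate dehydrogenases Ldha and Ldhb, the lactate exporter Slc16a3, and Pgm1, which links glycogen to the pathway. Eno1b, a near-identical copy of Eno1 whose reads may not be separable from it, is the other. Ldha was at 338, 383, 291 and 357 FPM in Ythdf1_KO and at 520, 485, 508 and 529 in Ythdf2_KO. No library overlapped, and the Ythdf2_KO libraries lay above WT (338 to 366 FPM), Ythdf3_KO (444 to 474) and Triple_KO (228 to 248). The difference was -0.58 ± 0.05 (adjusted p = 1.23e-26).

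Tpi1, triose phosphate isomerase, was at 246, 277, 260 and 289 FPM in Ythdf1_KO and at 358, 395, 358 and 374 in Ythdf2_KO (-0.47 ± 0.06, adjusted p = 4.54e-14). Its Ythdf1_KO values fell in or near the WT range of 243 to 298 FPM. Slc16a3 was at 31.2, 39.6, 34.3 and 34.4 FPM against 65.5, 64.1, 67.8 and 58.4 (-0.86 ± 0.13, adjusted p = 2.58e-08), with WT at 38 to 40.5. For all 12 called members the 4 libraries of Ythdf2_KO lay above the 4 of Ythdf1_KO, which 2.71% of all genes tested did. The 12 were called from these same libraries, so this is no separate support. Among all 336 called genes the libraries did not overlap in 260. The gap was narrow in the most abundant: Pkm, the last enzyme before pyruvate, was at 1667, 1595, 1465 and 1630 FPM against 1671, 1787, 1753 and 1861 (-0.15 ± 0.03, adjusted p = 6.29e-06). Gapdh (-0.064, adjusted p = 0.607), Pgam1 (-0.12, adjusted p = 0.334), Gpi1 (-0.16, adjusted p = 0.0768) and Hk2 (-0.14, adjusted p = 0.46) were not called. Without Ythdf2_KO replicate B the count fell from 12 to 7, and Pkm was among those lost (adjusted p = 0.0568).

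**Figure D2:**
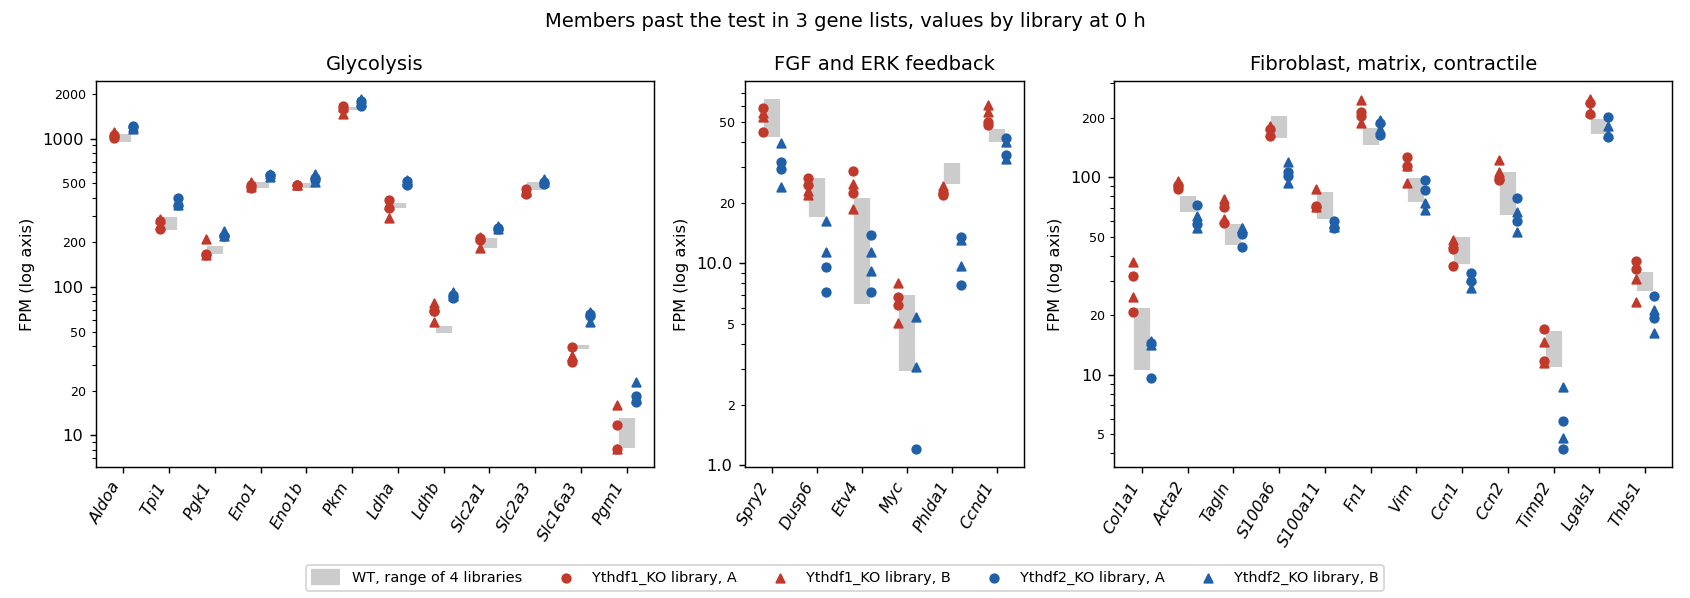
Values in FPM (log axis) of the members past the test in 3 gene lists at 0 h (12 of 13 in the fibroblast, matrix and contractile list), for each library of Ythdf1_KO (red) and Ythdf2_KO (blue), with circles for replicate A, triangles for B and the WT range as a grey bar; 1 Ythdf2_KO library of Myc at 0 FPM cannot be drawn on this axis. All 12 glycolysis members have 4 blue points above 4 red ones, and Ldha stands at 485 to 529 FPM in Ythdf2_KO.

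Targets of the hypoxia-inducible factors (HIF) outside glycolysis were mixed. Of 26 tested, 5 were higher in Ythdf2_KO and 2 in Ythdf1_KO (26.9% called, against 3.93% of all genes), with a median of -0.098. Bnip3, a mitochondrial receptor for autophagy, was at 6.41, 13.2, 7.3 and 6.37 FPM in Ythdf1_KO and at 28.4, 15.0, 19.7 and 28.7 in Ythdf2_KO. The groups did not overlap (-1.37 ± 0.23, adjusted p = 7.27e-07), and Ythdf1_KO was near the WT range of 5.59 to 8.83. Ddit4, an inhibitor of mTORC1 that many stresses induce, was at 25.6, 27.1, 16.8 and 45.8 FPM against 59.1, 86.2, 70.0 and 37.8. A library of each genotype crossed into the other's range, although the replicate means did not overlap (-1.13 ± 0.13, adjusted p = 4.42e-15). That SE and p rest on the spread of genes of like level, not on the spread of Ddit4 itself. The other 3 were Ak4, a mitochondrial adenylate kinase (-0.52, adjusted p = 0.00297), Bhlhe40, a circadian repressor (-0.88, adjusted p = 0.0252), and Stc2, a secreted glycoprotein (-1.17, adjusted p = 0.0251). The 2 that were higher in Ythdf1_KO were Lox, the enzyme that cross-links collagen (0.72, adjusted p = 0.00482), and Rbpj, the transcription factor of Notch signalling (0.55, adjusted p = 0.0205). Vegfa (-0.12, adjusted p = 0.917) and Egln1 (-0.48, adjusted p = 0.495), textbook targets, did not pass, and Car9 was under the filter. Without Ythdf2_KO replicate A, 2 of the list were called higher in Ythdf2_KO in place of 5, and without its replicate B or Ythdf1_KO replicate B, 3; Ak4 lost its call without replicate A (adjusted p = 0.113), and Bhlhe40 (up to 0.457) and Lox (up to 0.349) without more than 1 replicate.

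The promoters of the glycolysis genes and HIF targets were searched on both strands for ACGTG, a form of the core that HIF binds. The search ran over the RefSeq promoters of GRCm38.p6 (250 bases before to 50 after the start) and left out other forms of the core. The letters ACGTG also lie within the E-box CACGTG. A match was found in 7 of the 10 called glycolysis genes with a promoter in the table and in 8 of 13 tested members not called. Among HIF targets outside glycolysis it was found in 3 of 4 higher in Ythdf2_KO and in 10 of 13 not called, so in both lists called and uncalled genes had it in like shares. Among all tested genes 31.3% of 6849 had one, and among all 32851 promoters of this length 19.6%. It was present in 48.0% of the 98 genes higher in Ythdf2_KO and in 29.0% of the 145 higher in Ythdf1_KO that had a promoter. The matches of 3 glycolysis genes and 2 HIF targets higher in Ythdf2_KO are shown, to let the letters around the core be compared, on the gene's own strand, 5′ to 3′, with the core in capitals (CACGT is ACGTG read on the other strand). They are descriptions of the letters, not evidence of binding.
Ldha, chr7:46845760-46845784, + strand: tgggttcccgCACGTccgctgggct
Slc16a3, chr11:120949043-120949067, + strand: tgcgcgggggACGTGccgcgcgacg
Pgm1, chr4:99929260-99929284, + strand: aatcacagtaACGTGctgaactctt
Bnip3, chr7:138909599-138909623, - strand: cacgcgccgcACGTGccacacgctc
Ddit4, chr10:59951943-59951967, - strand: aacgttgcgaACGTGcgcccggtgc
The Bnip3 match is part of a CACGTG and the other 4 are not. The promoters of Tpi1, Eno1 and Ldhb, also higher in Ythdf2_KO, held no such letters in this window.

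Genes of other metabolic and stress lists differed in both directions. Bpgm, which makes the red cell metabolite 2,3-bisphosphoglycerate from a glycolytic intermediate, was at 7.25 ± 1.51 FPM in Ythdf1_KO and 14.4 ± 1.5 in Ythdf2_KO (-0.91, adjusted p = 0.0165). Its libraries did not overlap, and it lost the call without any 1 of 3 replicates (up to 0.161). Over 41 tested targets of ATF4, the factor of the integrated stress response, the median was -0.029. Of these targets, 5 were higher in Ythdf2_KO and 2 in Ythdf1_KO (17.1% called, against 3.93% of all genes). The 5 were Asns, asparagine synthetase (-0.21, adjusted p = 0.0032), Aldh18a1, for proline synthesis (-0.44, adjusted p = 0.00339), Pck2, mitochondrial PEP carboxykinase (-0.33, adjusted p = 0.0151), Gpt2, an alanine transaminase (-0.44, adjusted p = 0.0317), and Stc2. The amino acid transporters Slc7a3 (0.43, adjusted p = 0.00273) and Slc38a2 (0.29, adjusted p = 0.0431) were higher in Ythdf1_KO. Without Ythdf1_KO replicate B, Ythdf2_KO replicate A or Ythdf2_KO replicate B, 1 of the 5 was called, and Asns (up to 0.236), Aldh18a1 (up to 0.087) and Pck2 (up to 0.217) were among those lost; Slc7a3 was lost without Ythdf2_KO replicate B (0.0651).

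Endoplasmic reticulum chaperones had 2 of 25 called (8%, against 3.93% of all genes), both higher in Ythdf2_KO. Hspa5, the chaperone BiP, was at 572, 580, 510 and 567 FPM in Ythdf1_KO and at 687, 752, 684 and 712 in Ythdf2_KO (-0.35 ± 0.04, adjusted p = 3.41e-15). The Ythdf1_KO libraries lay below the WT range of 592 to 611 FPM and the Ythdf2_KO libraries above it. Pdia6, a disulfide isomerase, differed by -0.22 (adjusted p = 0.0188), up to 0.157 with 1 replicate left out. Of 74 nuclear oxidative phosphorylation genes, 2 were called (2.7%, against 3.93% of all genes), both higher in Ythdf1_KO, and the median was 0.0036. They were Cox4i1 (0.18, adjusted p = 0.000574) and Uqcrb (0.19, adjusted p = 0.0402). Both lost their calls without Ythdf2_KO replicate B, and under median scaling (adjusted p = 0.0538 and 0.223 with that scaling). None of 22 genes for cholesterol synthesis passed in limma, edgeR or DESeq2, and 3 had an unadjusted p under 0.05; the most abundant, Hmgcs1, differed by -0.021 (adjusted p = 0.947).

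Genes of fibroblasts, extracellular matrix and the contractile apparatus were higher in Ythdf1_KO. Of 30 tested, 13 were higher there (2.37% of all genes were), none was higher in Ythdf2_KO, and the median was 0.43. S100a6, a calcium-binding protein of proliferating cells, was at 175, 161, 169 and 181 FPM in Ythdf1_KO and at 106, 101, 93.7 and 120 in Ythdf2_KO, with WT at 157 to 203. The groups did not overlap, and Ythdf2_KO lay below WT (0.70 ± 0.08, adjusted p = 4.05e-16). Col1a1, the chain of collagen I, was at 31.6, 20.8, 37.2 and 24.8 FPM against 14.4, 9.58, 14.9 and 14.1 (1.04 ± 0.18, adjusted p = 1.91e-06), with WT at 10.6 to 21.7.

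Ccn2, a matricellular growth factor and YAP target, was higher by 0.71 (adjusted p = 1.03e-10), its relative Ccn1 by 0.50 (adjusted p = 0.0153), Acta2, smooth muscle actin, by 0.56 (adjusted p = 2.6e-06) and Timp2, a metalloproteinase inhibitor, by 1.12 (adjusted p = 0.000511). Vim, vimentin (0.46, adjusted p = 7.39e-05), Fn1, fibronectin (0.24, adjusted p = 0.0199), and Thbs1, thrombospondin (0.58, adjusted p = 0.0119), passed with overlapping libraries. The summed level of 12 fibroblast markers, of which this list holds several, was 491 to 597 FPM in Ythdf1_KO, 394 to 425 in Ythdf2_KO and 394 to 449 in WT; 5 of the 8 tested were higher in Ythdf1_KO. Of the defining fibroblast genes, Lum was at 0 in both knockouts, Dcn averaged 0.183 and 0.113 FPM, Col3a1 0.555 and 0.617, and Postn 3.75 and 1.94 FPM. Fewer cells of a type and less RNA per cell cannot be told apart in these bulk samples, and the part of such cells in the result was not tested. Without Ythdf2_KO replicate A, and equally without replicate B, 8 of the list were called in place of 13; Timp2 was lost without replicate A (adjusted p = 0.0575).

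**Figure D3:**
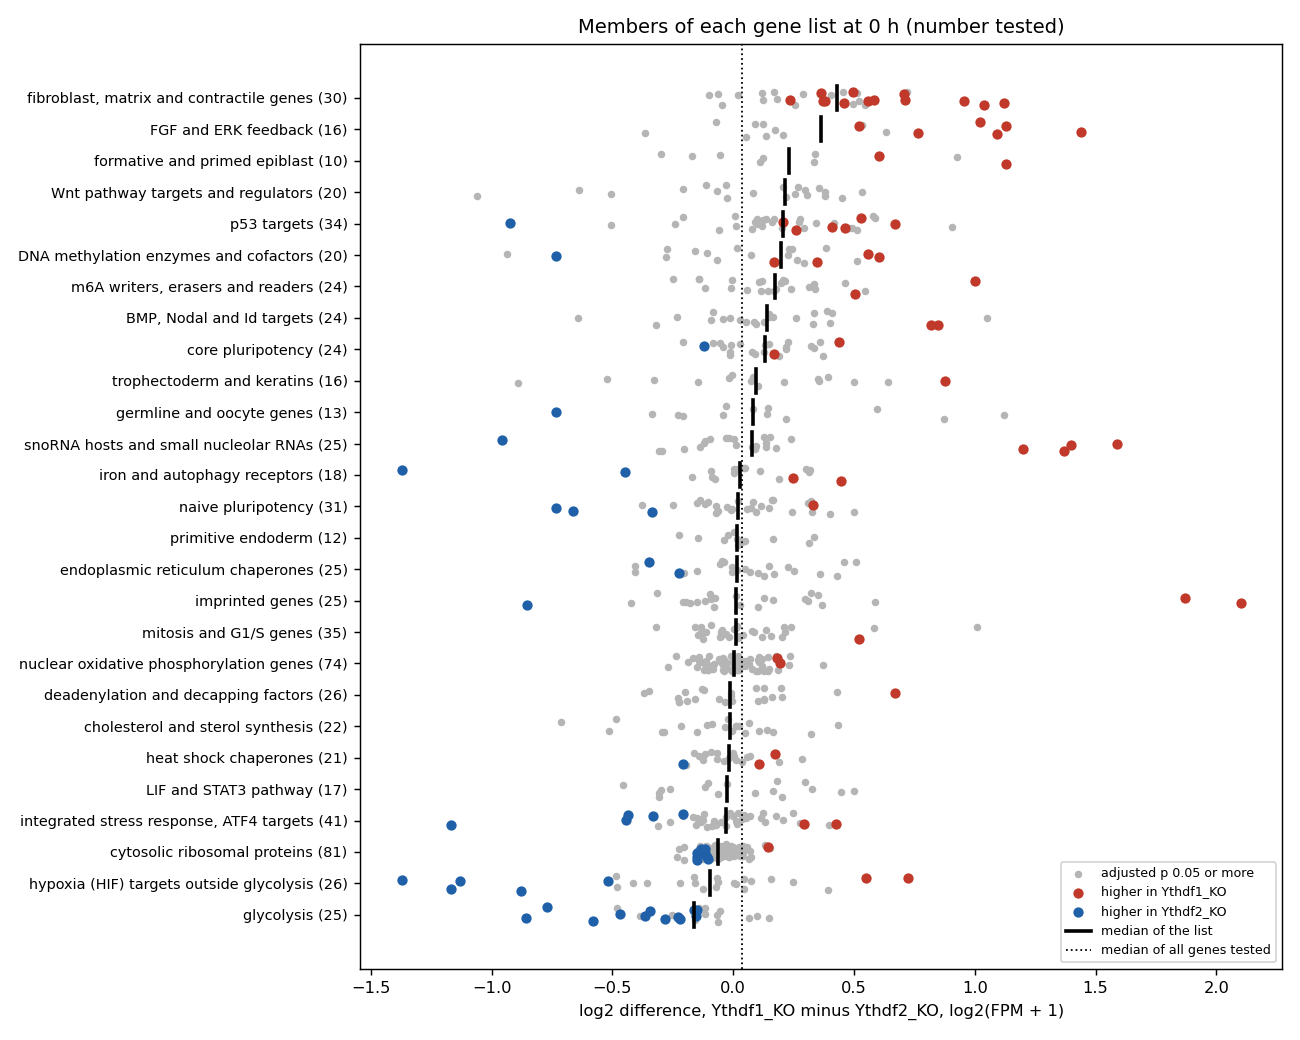
Log2 difference at 0 h (Ythdf1_KO minus Ythdf2_KO) of each tested member of the 27 gene lists with at least 10 members tested; red and blue points passed the test, black bars are list medians and the dotted line is the median of all genes. Glycolysis has the lowest median (-0.16) and fibroblast, matrix and contractile genes the highest (0.43).

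Targets and feedback inhibitors of FGF and ERK signalling, which pushes stem cells out of the naive state, were also higher in Ythdf1_KO: 6 of 16 tested (2.37% of all genes were), none in the other direction, with a median of 0.36. Of these 6, 4 were tested later; all 4 were positive at 4 h with none called, and at 8 h 2 were positive and 1, Etv4, was called. Dusp6, the phosphatase that inactivates ERK, was at 26.5, 24.3, 21.9 and 22.9 FPM in Ythdf1_KO and at 7.22, 9.58, 11.4 and 16.2 in Ythdf2_KO. Ythdf1_KO was within or near the WT range of 16.9 to 26.5 FPM, and Ythdf2_KO was below it (1.09 ± 0.23, adjusted p = 0.000156). Etv4, an ETS factor switched on by ERK, was at 28.6, 22.2, 24.8 and 18.5 FPM against 7.22, 13.8, 9.19 and 11.4 (1.13 ± 0.21, adjusted p = 1.6e-05), with WT spread from 6.29 to 21.0. Spry2, an inhibitor of receptor tyrosine kinase signalling, was at 58.5, 44.5, 53.3 and 55.4 FPM against 29.3, 31.7, 39.4 and 23.8 (0.77 ± 0.13, adjusted p = 1.91e-06), with WT at 42.3 to 65.4. It lies in a stretch of chromosome 14 that is described further on.

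Phlda1, an ERK-induced gene, was at 22.9 ± 1.09 and 11 ± 2.77 FPM (1.02, adjusted p = 7.85e-05), and the WT range of 24.7 to 31.5 lay above both. Ccnd1, cyclin D1, was at 53.8 ± 5.56 and 37.3 ± 4.29 FPM (0.52, adjusted p = 0.005). Myc was called (1.44, adjusted p = 0.0145) on few reads, at 5.09 to 8.03 FPM in Ythdf1_KO and 0 to 5.41 in Ythdf2_KO. Members upstream or abundant in stem cells did not differ by the test: Fgf4, the ligand these cells make, by -0.073 (adjusted p = 0.77), the receptor Fgfr1 by 0.14 (adjusted p = 0.745), and Etv5 by 0.13 (adjusted p = 0.504). Fgfr2, Spry1, Spry4, Dusp4, Dusp5, Fos and Egr1 were among the 14 of 30 members under the filter. Dusp6 lost its call without Ythdf2_KO replicate A (adjusted p = 0.149), and Ccnd1 without either replicate B (up to 0.209).

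Pluripotency genes differed in both directions. Of 24 core members, 2 were higher in Ythdf1_KO and 1 in Ythdf2_KO (12.5% called). Of 31 naive members, 1 was higher in Ythdf1_KO and 3 in Ythdf2_KO (12.9% called). Of all genes tested, 3.93% were called. Utf1, a chromatin factor of stem cells, was at 118, 98.7, 104 and 120 FPM in Ythdf1_KO and at 76.8, 83.2, 86.7 and 77.8 in Ythdf2_KO (0.44 ± 0.09, adjusted p = 0.000294). The corepressor Trim28 was at 875 ± 17.3 and 778 ± 12.2 FPM (0.17, adjusted p = 0.000448), and Tbx3, a naive factor, at 138 ± 14.6 and 109 ± 6.57 FPM (0.33, adjusted p = 0.0043). Tdh, the threonine dehydrogenase on which mouse stem cells depend, was at 446, 474, 467 and 472 FPM against 605, 571, 572 and 601, above WT (372 to 433) in both knockouts (-0.34 ± 0.05, adjusted p = 2.82e-11). Pecam1 (-0.66, adjusted p = 0.00979), Dppa3 (-0.73, adjusted p = 0.0252) and Dppa5a (-0.12, adjusted p = 0.0406) were higher in Ythdf2_KO. Dppa3, a maternal factor that guards methylation, was at 8.03 to 13.4 FPM in Ythdf1_KO, 17.1 to 20.8 in Ythdf2_KO, 1.69 to 8.63 in WT and 27.0 to 35.1 in Triple_KO. Trim28 lost its call under median scaling (adjusted p = 0.0629), Dppa3 and Dppa5a in each of the 4 fits with 1 replicate left out (Dppa3 up to 0.286), and Pecam1 (up to 0.273) and Tbx3 (up to 0.0852) without 1 of 2.

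Of 10 tested genes of the formative and primed epiblast, 2 were called (20%, against 3.93% of all genes), both higher in Ythdf1_KO. They were Etv4 and the de novo DNA methyltransferase Dnmt3b. Dnmt3b was at 50, 45.2, 46.7 and 43.9 FPM in Ythdf1_KO and at 28.4, 35.3, 31.9 and 25.9 in Ythdf2_KO, with WT at 37.2 to 43.3 between them (0.60 ± 0.14, adjusted p = 0.00129). Of 20 DNA methylation enzymes and cofactors tested, 4 were higher in Ythdf1_KO and 1 in Ythdf2_KO (25% called, against 3.93% of all genes). The 4 were Dnmt3b, Trim28, Dnmt3l, the cofactor of Dnmt3b (137 ± 10.5 and 108 ± 14.6 FPM, 0.35, adjusted p = 0.00109), and the demethylating dioxygenase Tet1 (46.3 ± 6.01 and 31.5 ± 6.1 FPM, 0.56, adjusted p = 0.00663). For Dnmt3l both knockouts lay far below the WT range of 206 to 238 FPM, and their libraries overlapped. Id3 (0.85, adjusted p = 4.16e-06), an inhibitor of differentiation, and the ligand Bmp4 (0.82, adjusted p = 0.00514) were the 2 of 24 BMP and Nodal genes called, both higher in Ythdf1_KO. They make up 8.33% of that list, against 3.93% of all genes called. Without Ythdf2_KO replicate B, 2 of the 4 methylation genes were called; Dnmt3b (adjusted p = 0.0756) and Tet1 (up to 0.244) were lost, as was Dnmt3l without replicate A (0.239) and Bmp4 in 3 of 4 settings (up to 0.0972).

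No gene of the LIF and STAT3 list (17 tested), the Wnt list (20), the primitive endoderm list (12) or the list of the 2-cell-like state (2) passed limma's test at 0 h. At an unadjusted p under 0.05 there were 1, 3, 1 and 0 such genes. edgeR called 1 in the first, Tfcp2l1, and 1 in the second, Cdx1, and DESeq2 called 0 in the 4 lists. In the trophectoderm and keratin list 1 of 16 was called by limma (6.25%, against 3.93% of all genes). It was Lgals3, a galectin, at 105, 86.2, 107 and 96.2 FPM in Ythdf1_KO and 44.2, 63.5, 49.9 and 56.8 in Ythdf2_KO. WT stood near Ythdf1_KO, at 101 to 128 (0.88 ± 0.11, adjusted p = 3.09e-14). Defining trophectoderm genes such as Cdx2 (1.14 and 1.8 FPM) and Eomes (5.13 and 4.89 FPM) were low in both knockouts, and the summed trophectoderm markers overlapped at 199 to 222 and 195 to 210 FPM, above the 118 to 144 of WT. The formative marker sum did not overlap: 110 to 137 FPM in Ythdf1_KO and 88.5 to 98.2 in Ythdf2_KO.

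Targets of p53 were higher in Ythdf1_KO in part: 6 of 34 tested (2.37% of all genes were), with 1 higher in Ythdf2_KO, a positive difference in 29 (4817 of all 8560 genes had one), and a median of 0.21. Mdm2, the ligase that degrades p53, was at 98.2, 88.3, 102 and 100 FPM in Ythdf1_KO and at 67.7, 71.2, 70.5 and 70.8 in Ythdf2_KO (0.46 ± 0.09, adjusted p = 7.19e-05); WT spanned 73.5 to 102, and Triple_KO was highest, at 134 to 149. Ccng1, cyclin G1, was at 115, 115, 120 and 111 FPM against 75.4, 98.2, 85.3 and 90.3 (0.41 ± 0.09, adjusted p = 0.000298), and both knockouts were below WT, at 124 to 134. Perp (0.53, adjusted p = 0.00465), Bax (0.21, adjusted p = 0.000934), Btg2 and Ei24 (0.26, adjusted p = 0.0259) were the others, and Sesn1 (-0.93, adjusted p = 0.0489) was the one higher in Ythdf2_KO. Cdkn1a, the p53 target that stops the cell cycle, differed by 0.079 (adjusted p = 0.769). Without Ythdf1_KO replicate B, and likewise without Ythdf2_KO replicate B, 3 of the 6 were called, and Perp (up to 0.187) and Bax (up to 0.122) were among those lost. Sesn1 lost its call in every setting with 1 replicate left out. Of 35 tested genes of mitosis and G1/S, 1 was called, Ccnd1 (2.86%, against 3.93% of all genes), and the median was 0.0097.

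Of 18 tested genes of iron handling and autophagy receptors, 2 were higher in Ythdf1_KO and 2 in Ythdf2_KO, with a median of 0.030. That is 22.2% called, against 3.93% of all genes. Hmox1, heme oxygenase, was at 287, 279, 324 and 278 FPM in Ythdf1_KO and averaged 214 ± 11.5 in Ythdf2_KO (0.45 ± 0.06, adjusted p = 8.5e-11). All 4 libraries of Ythdf1_KO lay above the WT range of 196 to 269. Fth1, the heavy chain of ferritin, was at 760 ± 27.6 and 639 ± 20.4 FPM (0.25, adjusted p = 1.78e-08), both below the WT range of 779 to 849 FPM on average. Ncoa4, the receptor that sends ferritin to autophagy, was higher in Ythdf2_KO (-0.45, adjusted p = 0.0377), as was Bnip3 above; the Ncoa4 call was lost without any 1 replicate (up to 0.378).

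Ribosomal protein genes differed little and in a way that hung on the scaling. Of 81 tested, 9 were higher in Ythdf2_KO and 1 in Ythdf1_KO (12.3% called, against 3.93% of all genes), with a median of -0.064. TMM scaling gave 24 higher in Ythdf2_KO and edgeR 23, and leaving out Ythdf2_KO replicate A or B gave 4 or 3. Rpl41 was at 1859 ± 105 FPM in Ythdf1_KO and 2056 ± 123 in Ythdf2_KO (-0.15, adjusted p = 2.68e-06), Rps20 differed by -0.12 (adjusted p = 0.000118) and Rpl4 by -0.10 (adjusted p = 0.00139), all with overlapping libraries; Rps20 (up to 0.108) and Rpl4 (up to 0.0713) lost their calls without 1 of 2 replicates. Many ribosomal protein genes have processed copies whose reads may not be separable. Of 21 heat shock chaperones, 2 were higher in Ythdf1_KO, Hsp90ab1 (0.11, adjusted p = 0.00129) and Hspb1 (0.17, adjusted p = 0.0102), and 1 in Ythdf2_KO, Fkbp4 (-0.21, adjusted p = 0.0365). That is 14.3% called, against 3.93% of all genes. Under median scaling Hsp90ab1 (adjusted p = 0.305) and Hspb1 (0.164) were not called, and with 1 replicate left out Hsp90ab1 (up to 0.139), Hspb1 (without Ythdf2_KO replicate B, 0.394) and Fkbp4 (in all 4 fits, up to 0.319) lost their calls.

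Replication-dependent histone genes were chosen for description after their values were seen. All 13 tested genes of histone H2A (H2ac) had a negative difference, as did 3743 of all 8560 genes, and their median was -0.46. Of the 13, 6 were higher in Ythdf2_KO (1.55% of all genes were). H2ac24 averaged 127 FPM in Ythdf1_KO and 182 in Ythdf2_KO (-0.60, adjusted p = 1.56e-13), and H2ac23, its near-identical copy, had the same means. Reads cannot be assigned to single copies, so the 13 are not 13 separate observations. The 3′ poly(A) RNA-seq libraries count only the histone reads caught that way, and the total level of H2A RNA was not measured. After 4 h the median of the 10 family members tested was -0.46. After 8 h that of the 9 tested was -0.057, which is -0.26 relative to the median of all genes at 8 h. The linker and H2B genes tested, 1 of each, were not called (H1f2 0.39, adjusted p = 0.612, and H2bc4 0.24, adjusted p = 0.766).

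The called genes were not spread evenly over the chromosomes. On chromosome 14, 20 of 296 tested genes (6.76%) were higher in Ythdf2_KO, against 1.55% of all genes. Most lay in 1 stretch, whose limits were set after the values were seen. Between 60 and 90 Mb (GRCm38.p6), 73 genes were tested, 16 were higher in Ythdf2_KO, none was higher in Ythdf1_KO, and the median was -0.25. The median was -0.28 in replicate A, -0.23 in replicate B and -0.24 at 4 h, in other libraries, and -0.12 at 8 h. Relative to the median of all genes at each time, which was 0.21 at 8 h, it was -0.29 at 0 h, -0.24 after 4 h and -0.32 after 8 h. Relative to WT, which both values share, the stretch had a median of -0.044 in Ythdf1_KO and 0.29 in Ythdf2_KO. Among the genome's 193 windows of 10 Mb with at least 15 tested genes, the lowest median was -0.33, at 70 to 80 Mb here. The second lowest, -0.16, was at 60 to 70 Mb of this chromosome. The third lowest was -0.11, and 5% to 95% of windows ranged from -0.056 to 0.19. The stretch was chosen from these 0 h values, so its rank, its calls and its medians in A and B are no separate support.

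Pbk, a mitotic kinase in this stretch (chr14:65805911-65817822), was at 19.2, 21.5, 14.6 and 22.9 FPM in Ythdf1_KO and at 32.1, 40.1, 41.1 and 51.9 in Ythdf2_KO (-1.04 ± 0.16, adjusted p = 2.66e-08). Dnajc15, a mitochondrial co-chaperone (chr14:77826217-77874917), was at 27.3, 25, 21.2 and 26.1 FPM against 47.9, 58.7, 46.4 and 42.7 (-0.94 ± 0.15, adjusted p = 8.65e-08). In both, Ythdf1_KO stood within or near the WT range (12.4 to 23.8 and 21.0 to 28.7 FPM), and all Ythdf2_KO libraries stood above it. Tpt1, an abundant growth-related protein (-0.36, adjusted p = 1.17e-19), Tsc22d1, a TGF-beta-induced regulator (-0.59, adjusted p = 3.05e-22), Sucla2, of the citric acid cycle (-0.77, adjusted p = 4.02e-08), Elp3, of the elongator complex (-0.59, adjusted p = 7.6e-06), and Tdh above lie there too; Tpt1, Tsc22d1, Sucla2 and Elp3 were named after their values were seen. Tdrd3, a Tudor domain protein (-1.09, adjusted p = 0.00111), lies there too and lost its call without Ythdf2_KO replicate A (adjusted p = 0.306).

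**Figure D4:**
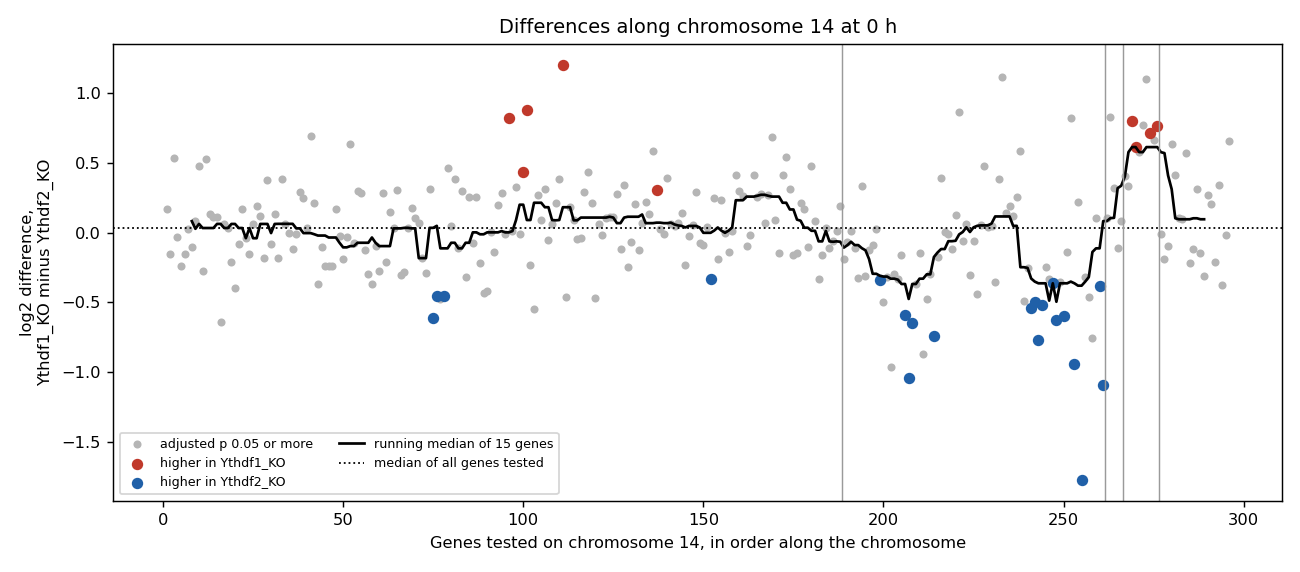
Log2 difference at 0 h (Ythdf1_KO minus Ythdf2_KO) of the 296 tested genes of chromosome 14 in their order along it, with the running median of 15 genes in black and vertical lines at 60, 90, 100 and 110 Mb. The stretch from 60 to 90 Mb holds 16 of the 20 genes higher in Ythdf2_KO, and the 10 genes between 100 and 110 Mb are all above 0.

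Further along, the stretch between 100 and 110 Mb was also chosen after the values were seen. With 10 tested genes it lay under the minimum of 15, so it was not in the comparison of windows over the genome. All 10 were higher in Ythdf1_KO by sign, with a median of 0.69 (0.68 in replicate A, 0.57 in B, 0.60 at 4 h and 0.62 at 8 h). The signs, the calls and the medians in A and B come from the values used to choose the stretch, so they are no separate support. Relative to all genes the median was 0.65 at 0 h, 0.60 after 4 h and 0.41 after 8 h. Of the 10 genes, 4 were called higher in Ythdf1_KO (2.37% of all genes were). Among them were Lmo7 (0.80, adjusted p = 0.0198), Rbm26, an RNA-binding protein (0.71, adjusted p = 8.27e-06), and Spry2. Both knockouts were below WT here, with medians of -0.51 in Ythdf1_KO and -1.03 in Ythdf2_KO, and so were Ythdf3_KO (-0.56) and Triple_KO (-0.41); all 4 share WT. From 110 to 130 Mb the 20 tested genes had a median of 0.041 between the knockouts, and against WT the single knockouts of Ythdf1, Ythdf2 and Ythdf3 were at -0.35, -0.49 and -0.41, with Triple_KO at -0.33. No DNA data were analysed here, so the copy number or haplotype of these stretches cannot be told apart from the genotype, which touches the values of Tdh, Pbk, Dnajc15 and Spry2.

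Chromosome 13 as a whole stood apart in the other direction. Its 288 tested genes had a median 0.15 above that of all genes (0.12 in replicate A, 0.16 in B, 0.14 at 4 h and 0.10 at 8 h), and 71.5% of them lay above the median of all genes. Of these, 21 were higher in Ythdf1_KO (7.29%) and 10 in Ythdf2_KO (3.47%), the latter including the histone genes above. Relative to WT, which both share, the chromosome was at 0.17 in Ythdf1_KO and 0.030 in Ythdf2_KO. Chromosome 8 was next, 0.094 above all genes, with 65.9% of its 472 genes above the median. Its calls were 15 higher in Ythdf1_KO (3.18%) and 4 in Ythdf2_KO (0.847%), against 2.37% and 1.55% of all genes. Chromosomes 7 and 5 had like shares higher in Ythdf1_KO (3.22% and 3.06%).

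The same contrast in the libraries of 4 h and 8 h shares no library with 0 h. At 4 h, 53 of 7864 genes (0.674%) were called, with 1 library per replicate. Of the 203 genes higher in Ythdf1_KO at 0 h, 194 were tested at 4 h, 161 had the same sign and 15 were called, all in the same direction. Of the 133 higher in Ythdf2_KO, 127 were tested, 117 had the same sign and 23 were called, all in the same direction. The sign was positive in 50% of all genes at 4 h. Glycolysis kept its direction: all 12 called members were negative, with a median of -0.35, and Tpi1, Ldha, Slc2a1, Slc2a3 and Slc16a3 were called again.

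At 8 h, 534 of 6915 genes (7.72%) were called, 505 of them higher in Ythdf1_KO and 29 (0.419%) higher in Ythdf2_KO, and the median of all genes was 0.21, with 73% positive. FPM values of a library share a fixed total, so such a shift touches every gene. Median scaling gave 119 higher in Ythdf1_KO and 275 higher in Ythdf2_KO. The transcripts listed held 32.7% to 35.0% of the reads in Ythdf1_KO libraries of 8 h and 29.5% to 31.5% in Ythdf2_KO. Depth was 796921 to 986586 reads per library in Ythdf1_KO and 1099460 to 1231290 in Ythdf2_KO. The part of these differences in the shift was not tested. Of the 0 h genes higher in Ythdf1_KO, 189 were tested, 173 had the same sign and 73 were called, all in the same direction. Of those higher in Ythdf2_KO, 123 were tested, 78 had the same sign, 15 were called in the same direction and 8 in the opposite one. The 13 fibroblast and matrix genes were all positive at 8 h with a median of 1.07, and 9 were called. Of the 12 glycolysis genes 10 were negative, with a median of -0.11; Pgk1, Ldha and Ldhb were called in the same direction, and Slc2a1 in the opposite one.

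**Figure D5:**
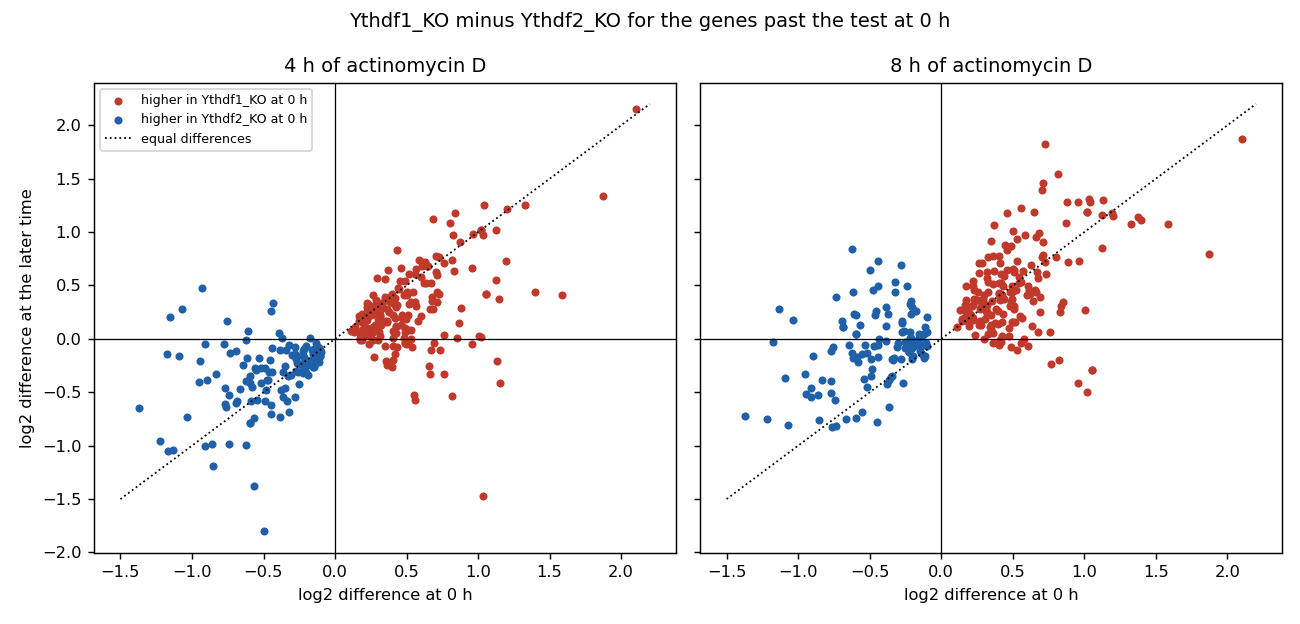
Log2 difference between Ythdf1_KO and Ythdf2_KO at 4 h (left) and 8 h (right) of actinomycin D against that at 0 h, for the genes past the test at 0 h; the dotted line marks equal differences. At 4 h 161 of 194 red and 117 of 127 blue genes keep their sign, and at 8 h 173 of 189 and 78 of 123.

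Whether a difference changed between 0 h and 8 h was tested as a genotype by time term. Of 8941 genes, 52 (0.582%) passed, 51 of them with a more positive difference at 8 h and 1 (0.0112%) with a more negative one; the sign was positive in 65.2% of all genes. Under median scaling 10 passed, 1 more positive and 9 more negative, so the direction of these changes depends on the scaling. S100a6 grew from 0.70 at 0 h to 1.40 at 8 h, at 302 to 337 FPM in Ythdf1_KO and 96.4 to 136 in Ythdf2_KO.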

How the data were processed

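The 3′ poly(A) RNA-seq libraries were deposited as 1 table of FPM (the same unit as RPM), reads per RefSeq transcript scaled by the authors to each library's total; CASAVA 1.8.2, Bowtie2 and mm10 are named per the submitters' processing notes. Read filters, strand use and treatment of multiple matches are not given in the sources used here. Whole reads were recovered from the deposited RPM values within 0.1 read. Names came from RefSeq GRCm38.p6 (21725 of 22338 transcripts) and GENCODE M21 (124). Identical repeats of a gene (2169) were dropped and distinct transcripts summed, giving 19455 genes, of which 2151 share their values with another gene.

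Duplicate libraries were averaged as log2(FPM + 1), which understates changes of low genes. A gene entered the test if 2 or more replicate means reached 5 FPM. The test was limma 3.58 (R 4.3; empirical Bayes with trend), fitted on the 8 replicate means of the 4 knockout genotypes, so that all 4 set the spread (4 residual degrees of freedom); Benjamini-Hochberg adjustment ran over all genes tested, at 0.05. The prior degrees of freedom were infinite, so each gene took the spread of its expression level. Fold errors are limma's SE and FPM errors are SD over 4 libraries. edgeR 4.0 and DESeq2 1.42 on recovered reads, other scalings, filters, pseudocounts and sample sets were alternatives. The fits were tested on simulated data. Genes named were the 5 YTH readers, the 12 largest rises and 12 largest falls with non-overlapping replicate means and at least 10 FPM in either knockout (pseudogenes and unnamed gene models left out), and from each of 28 lists up to 4 called members with the smallest p (or the 2 highest where none passed); further list members are named to complete counts, and the results of some members are not reported here. Members and lists were chosen with earlier results of these data known. Same-lettered replicates of different genotypes did not deviate together (correlations of A minus B from -0.018 to 0.028), so letters pair nothing. Duplicate libraries of a replicate differed beyond counting noise (chi-square per degree of freedom 1.43 to 1.69). So did A and B with duplicates summed (1.41 in Ythdf1_KO and 1.35 in Ythdf2_KO). By this measure A and B differed no more than duplicate libraries did.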

Additional observations from a re-analysis of the deposited data

Results flagged for a closer look

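In 7 of 172 groups of 4 libraries examined among the named genes, 1 library stood apart from the other 3 by Dixon's criterion; chance gives about 1 in 20. In Ythdf2_KO, Snora26 was at 9.93 FPM in 1 library of replicate A (others 3.94 to 4.32), Srpk2 and Kmt2e, which share their values, at 6.13 in 1 library of B (others 3.16 to 3.59), Mcts2 at 57.3 in 1 library of B (others 67.6 to 68.7), Col1a1 at 9.58 in 1 library of A (others 14.1 to 14.9) and Hsp90ab1 at 1900 in 1 library of B (others 1980 to 1990). In Ythdf1_KO, Bnip3 was at 13.2 FPM in 1 library of A (others 6.37 to 7.3).

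For 4 named genes the difference between the knockouts changed from 0 h to 8 h by the genotype by time term. It moved by 0.36 for Ldha (adjusted p = 0.0421), 0.69 for S100a6 (0.00328), 0.47 for Tfcp2l1 (0.0438) and 0.50 for Fkbp4 (0.0292). Tfcp2l1, a naive pluripotency factor, was not called at 0 h (-0.12) and was higher in Ythdf1_KO at 8 h (0.35, adjusted p = 0.0121). Under median scaling none of the 4 passed, with changes of 0.16, 0.49, 0.26 and 0.30 and adjusted p-values of 0.757, 0.124, 0.549 and 0.49.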

How the results depend on the processing

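The 336 calls at 0 h became 52 with all times in the fit, 103 with no filter on low values and 121 with DESeq2 on recovered reads; the cause was not tested. Leaving out 1 replicate gave 161 to 295. DESeq2 shared 117 calls with the 336 in the same direction (34.8% of the 336 and 96.7% of its own) and edgeR 278 (82.7% and 73.9%). The 53 calls at 4 h became 6 with no filter and 16 to 31 with 1 replicate left out, and the 534 at 8 h became 121 and 254 to 420. The 52 changes between 0 h and 8 h became 10 under median scaling, 5 with no filter and 4 to 27 with 1 replicate left out. With a replicate block, the calls were 338, 53, 482 and 53; letters pair nothing here, and no named gene lost its call. A lone sample was assumed to vary like the other groups. Of 76 genes chosen by the naming rule that passed the test, 34 kept the call with each of the 4 replicates left out in turn, 5 in none, and none reversed its direction under any setting run. No named gene was lost with a pseudocount of 0.5 or 5 FPM. With all times in the fit 49 of the 76 were lost, and with no filter 39. DESeq2 lost 33 and kept 39, and gave the others no adjusted p. With edgeR 2 were lost, with TMM or the 2 genotypes only 3, and under median scaling or with WT in the fit 5. A filter at 10 FPM left 4 untested.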
